A study of Mus musculus with 6 samples.

Results

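The control mouse retina at postnatal day 6 (P6) was described by the level and rank of each gene in the 3 RNA-seq libraries whose genotype label reads control, out of 6 libraries in the series. Every library held the retinas of 1 animal on a mixed C57BL/6J; 129S6 background, taken after the pigment epithelium had been peeled away. No allele is named for these controls in their labels. Control mice in the electroretinograms of the same study were either wild type or heterozygous for an Lhx4 loxP allele, which is not stated for the RNA-seq animals. The remaining 3 libraries came from Lhx4 null retinas (tdTomato knock-in allele over loxP, with Six3-Cre), were not used, and no genotypes were compared.

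The first postnatal week is when the mouse retina finishes making its cells. Rods, bipolar cells (BCs) and Müller glia are the last classes to leave the dividing progenitor pool, while ganglion cells, horizontal cells, cones and most amacrine cells are born earlier. Rod outer segments, the light-sensing membranes of the cell, and the ribbon synapses between photoreceptors and BCs are still being built at this age, and the eyes are still closed.

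Levels are in FPKM (fragments per kilobase of transcript, scaled to the mapped fragments of the library), a value per gene length that allows genes to be set beside each other within a library. It keeps no read number, and the study's methods give a range of read depth over all its libraries but no value for each, so no counting intervals are given here and precision rests on the spread over 3 animals. A gene was called detected at 1 FPKM or more in all 3 libraries. It was called steady when its highest library was under 1.5 times its lowest, and unsteady when that ratio was 2 or more or a library was listed at 0. These are descriptions with no test, since 3 libraries cannot give a p-value below 0.25 in an exact paired test. In whole retinas, fewer cells of a type and less RNA per cell cannot be told apart.

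Of 21876 gene names, 11696 (53.5%) were detected, 12201 had a mean of at least 1 FPKM and 4709 were listed at 0 in all 3 libraries. Among the genes with a mean of at least 1 FPKM, 9651 (79.1%) were steady and 860 (7.05%) were unsteady, with a median highest-to-lowest ratio of 1.25. Control 3 stood apart from the other libraries. Controls 1 and 2 lay within 1.5-fold of each other for 95.4% of genes, against 84.2% for controls 1 and 3 and 85.8% for controls 2 and 3. Control 3 was the lowest library for 44.0% of genes and the highest for 35.1%, while control 1 was lowest for 30.1% and highest for 33.9%, and control 2 was lowest for 26.0% and highest for 30.9%. With control 3 left out, 95.7% of 12156 genes were steady. Counts of detected genes, steady genes, class pairs and programme shares are therefore also given with libraries left out. Counts of steady or unsteady genes within a list, class or bin use all 3 libraries, control 3 included. The 79.1% set beside such counts is over all genes and is not matched for level. Of genes with a mean of at least 100 FPKM, 88.1% were steady, and of those from 1 to 5 FPKM, 56.5%.

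The transcriptome was led by protein synthesis, mitochondria and a few structural and metabolic genes rather than by genes particular to the retina. Of the 25 most abundant genes, 11 encoded cytosolic ribosomal proteins and 4 were mitochondrial, whereas 1 (Pdc) was on the rod list and none was a retinal transcription factor. Among the top 100, 44 were ribosomal protein genes, 8 mitochondrial, 6 rod genes and 3 retinal transcription factors. The 100 most abundant genes held 22.2%, 23.5% and 28.0% of all FPKM in controls 1, 2 and 3, and the top 10 held 6.33%, 7.08% and 10.6%. Order within the top 25 was loose, since 3 of the 24 neighbouring pairs kept their order in all 3 libraries. Even so, 18 of the 25 were among the top 25 of each library. Of the 25, 19 were steady, against 79.1% of all genes and 88.1% of the 598 genes with a mean of at least 100 FPKM.

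**Figure D1:**
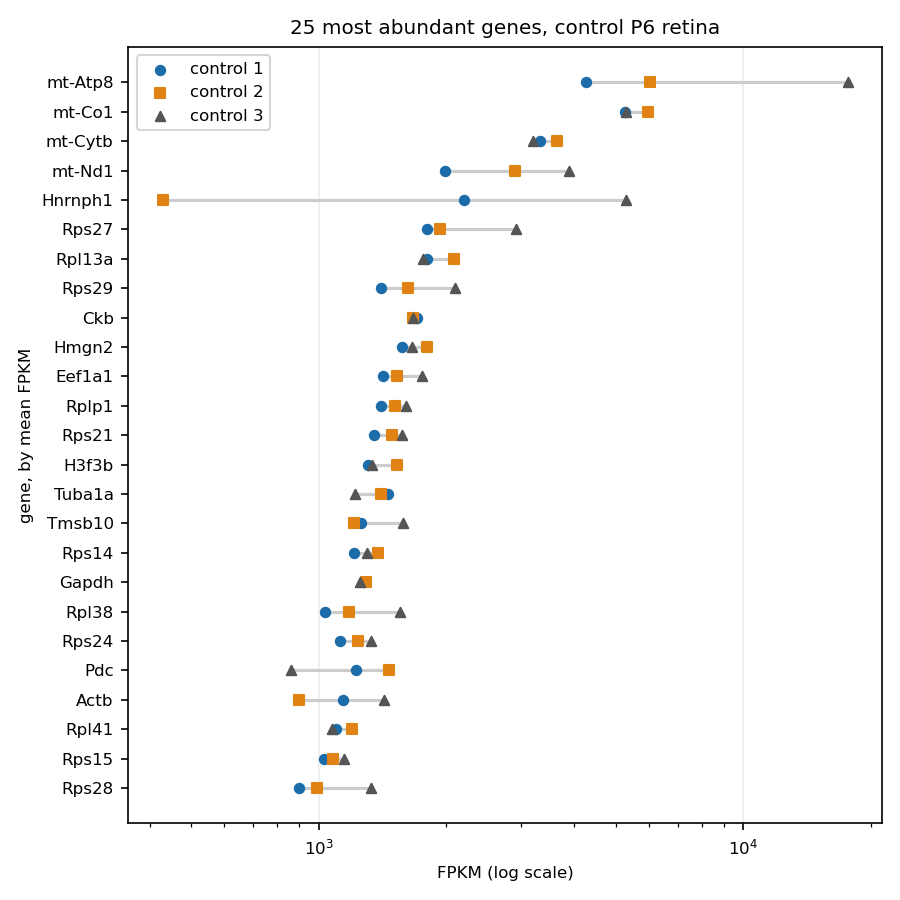
FPKM (log scale) of the 25 genes with the highest mean over 3 control P6 retinas, 1 point per library, with a grey line from the lowest to the highest library. Most genes have points close together, while Hnrnph1 ranges from 429 FPKM in control 2 to 5297 FPKM in control 3, and mt-Atp8 reaches 17608 FPKM in control 3.

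The mitochondrial genome encodes 13 subunits of the respiratory chain, and all 13 were detected. Their summed FPKM was 4.35%, 5.26% and 8.24% of controls 1, 2 and 3. Much of the rise in control 3 lay in 1 gene, mt-Atp8. It was at 4259, 6017 and 17608 FPKM, within sums of 17440, 21648.5 and 35423 FPKM. mt-Co1, the catalytic subunit of cytochrome c oxidase (chrM:5328-6872 on GRCm38), was at 5254, 5949 and 5285 FPKM, a mean of 5496 ± 393 (SD, n = 3). mt-Cytb, the cytochrome b subunit of complex III, was at 3319, 3633 and 3195 FPKM. These were the steady members, at highest-to-lowest ratios of 1.13 and 1.14.

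The other mitochondrial genes spread more widely. mt-Atp8, a subunit of ATP synthase with 204 exon bases, was listed highest of all genes at 4259, 6017 and 17608 FPKM. mt-Nd3, a complex I subunit with 348 exon bases, was at 73.1, 82.8 and 503 FPKM, and mt-Nd4l, with 297 exon bases, was at 36.0, 41.2 and 131 FPKM. Control 3 was the highest library for 10 of the 13, against 35.1% of all genes. At the low end of the same chromosome, mt-Co2 was at 4.85, 8.45 and 17.9 FPKM, mt-Atp6 at 3.80, 7.92 and 19.4 FPKM, and mt-Co3 at 2.35, 5.59 and 4.21 FPKM. mt-Atp8 (chrM:7766-7969) overlaps mt-Atp6 (chrM:7927-8607), and the part of overlap and of short length in these values was not tested.

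Ribosomal protein genes formed the largest programme of the 48 measured. Of 81 genes, 78 were detected, and together they made up 10.4%, 11.3% and 12.3% of FPKM in controls 1, 2 and 3. Their median member stood at 500.5 FPKM, above 99.6% of all names. Of the 78 with a mean of at least 1 FPKM, 72 were steady. The share was 79.1% over all genes and 88.8% over genes with a mean from 100 to 1000 FPKM. Rps27 (chr3:90212522-90213651, minus strand) was at 1803, 1935 and 2916 FPKM, and Rpl13a at 1801, 2080 and 1763 FPKM. Rpl3l, a paralogue known from striated muscle, was the member with the largest ratio, at 2.24, 1.45 and 1.08 FPKM. Control 3 was highest for 67 of the 78, against 35.1% of all genes, with a median difference of 0.24 on the log2 scale. Translation factors were as even, at 1.57%, 1.66% and 1.80% of FPKM with 19 of 19 steady. Eef1a1, which brings aminoacyl-tRNA to the ribosome, led them at 1420, 1527 and 1754 FPKM.

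The promoter of Rps27 is shown because it leads the ribosomal genes and holds a motif frequent among them. Over the 250 bases before the RefSeq start, searched on both strands, CTTCCG, the core letters of sites for ETS factors, occurred in 31 of the 60 ribosomal protein genes with a promoter entry (51.7%) and in 15.3% of all 27025 genes in the promoter table. The sequence is from RefSeq on GRCm38.p6, 5′ to 3′ on the gene's strand, chr3:90213649-90213898 (minus strand), with the match in capitals.
Rps27: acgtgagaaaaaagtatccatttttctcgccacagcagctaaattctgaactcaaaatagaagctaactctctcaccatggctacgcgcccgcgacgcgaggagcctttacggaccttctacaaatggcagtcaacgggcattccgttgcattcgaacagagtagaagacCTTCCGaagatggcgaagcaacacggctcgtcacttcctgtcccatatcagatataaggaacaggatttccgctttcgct

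Genes of energy supply were also abundant. Nuclear-encoded respiratory chain genes made up 1.79%, 1.85% and 1.54% of FPKM, and all 29 measured were steady, against 79.1% of all genes. Atp5b, the catalytic subunit of ATP synthase, was at 826, 891 and 721 FPKM. Glycolysis genes made up 1.45%, 1.5% and 1.30%. Gapdh was among the steadiest of the abundant genes, at 1277, 1293 and 1254 FPKM, and Ldha, which turns pyruvate into lactate, was at 1011, 1224 and 889 FPKM. Ckb, the brain-type creatine kinase, was at 1707, 1665 and 1672 FPKM, a ratio of 1.03. Hk1, the hexokinase that opens glycolysis, was the least steady of the list, at 63.6, 65.4 and 29.9 FPKM.

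Splicing factors and heterogeneous nuclear ribonucleoproteins were steady in 29 of 30 genes, against 79.1% of all genes. The exception was the most abundant of them. Hnrnph1, a regulator of splice site choice (chr11:50376990-50386528), was at 2197.5, 429 and 5297 FPKM, and its rank moved from 4 in control 1 to 123 in control 2 and 2 in control 3. Hnrnpa2b1, the next member, was at 986, 939 and 1210.2 FPKM, and Msi1, an RNA-binding protein of neural progenitors and photoreceptors, at 360.3, 387 and 373 FPKM. The share of the whole list, 1.98%, 1.52% and 2.78%, followed Hnrnph1. Among chromatin genes, Hmgn2, a nucleosome-binding protein, was at 1568, 1798 and 1660.2 FPKM and H3f3b, which encodes histone H3.3, at 1306, 1529 and 1337 FPKM.

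Genes of growing neurites were among the most abundant genes outside these housekeeping programmes. They made up 1.76%, 1.72% and 1.85% of FPKM, and all 26 measured were detected. Tuba1a, the α-tubulin of young neurons, was at 1454, 1406 and 1220.5 FPKM. Tmsb10, which binds actin monomers, was at 1261, 1213 and 1576 FPKM, and Stmn1, which destabilises microtubules, at 661, 690.1 and 879 FPKM. Tubb2a was the steadiest member at 169, 174 and 166 FPKM, and Sox11, a factor of newly born neurons, the least steady at 6.65, 7.90 and 14.2 FPKM.

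Cell classes were compared by 17 sets of core markers with no gene in common, 143 of whose 144 genes were in the table. Summed FPKM placed rods at the top in all 3 libraries and amacrine cells at place 4. Cones and Müller glia held places 2 and 3, with cones ahead in controls 2 and 3 and Müller glia ahead in control 1. Ganglion cells were at place 5 in controls 1 and 2 and at place 6 in control 3. Of the 16 neighbouring pairs of classes, 8 kept their order in all 3 libraries. A sum depends on its leading gene, and with the highest marker of each class removed Müller glia came before cones. It also depends on the size of the set, which was 10 genes for most classes. Horizontal cells, pericytes, oligodendrocytes and skeletal muscle had 6, and red blood cells and astrocytes 5. The order is of summed marker RNA and is no estimate of cell numbers.

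**Figure D2:**
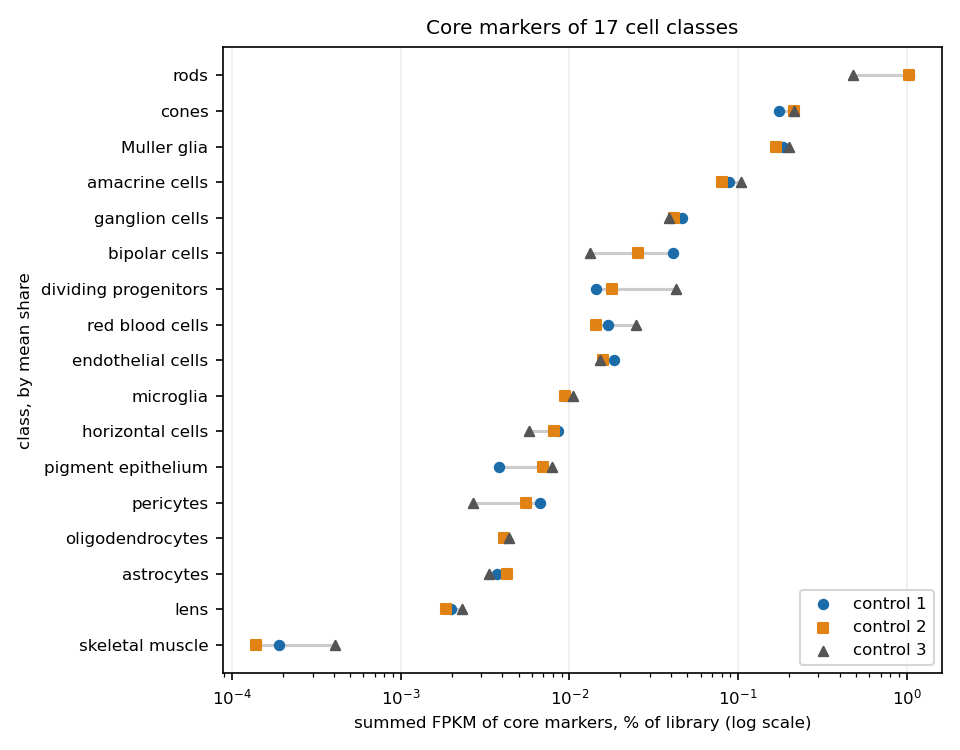
Summed FPKM of the core markers of 17 cell classes, as a percentage of all FPKM of the library (log scale), 1 point per control library. Rods lie at 1.04%, 1.03% and 0.478%, and skeletal muscle is lowest of all. Horizontal cells, with 6 markers against 10 in the other neuron classes, have the lowest sum among the neurons, at 0.00861%, 0.00806% and 0.00573%.

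Rod genes were the leading retinal programme. The 10 core rod markers were all detected and made up 1.04%, 1.03% and 0.478% of FPKM in controls 1, 2 and 3. The wider list of 31 rod genes made up 2.21%, 2.22% and 1.12%. Pdc, phosducin, which binds the βγ subunits of the rod G protein, was the most abundant, at 1228, 1466 and 860.3 FPKM and rank 21 by mean. Regulators of rod fate were also high. Nr2e3, a nuclear receptor that represses cone genes in rods (chr9:59942771-59960659, minus strand), was at 781, 854 and 554 FPKM. Nrl, the leucine zipper factor that sets rod fate (chr14:55518978-55524981, minus strand), was at 568, 664 and 461 FPKM.

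Phototransduction genes were abundant but uneven. Sag, the rod arrestin that shuts off the light response, was at 689, 738 and 293 FPKM. Pde6g, the inhibitory subunit of the phosphodiesterase, was at 463, 489 and 179 FPKM. Controls 1 and 2 were close for both, and control 3 was the lowest. Pde6b, a catalytic subunit of the same enzyme, was at 237, 225 and 98.7 FPKM. Gngt1, the γ subunit of rod transducin, was at 229, 239 and 82.9 FPKM, whereas Gnat1, the α subunit that carries the signal, was at only 21.9, 20.5 and 3.57 FPKM. Slc24a1, the rod sodium, potassium and calcium exchanger, was lower still at 2.46, 1.72 and 0.261 FPKM. The proteins of this 1 cascade were thus represented by RNA levels from that of Slc24a1 to that of Pdc.

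The disc and cilium genes of the outer segment ranged widely in level. Rom1, which shapes disc rims, was at 494, 442 and 275 FPKM, and its partner Prph2 at 398, 372.5 and 172 FPKM. Tulp1, needed for transport into the outer segment, was at 487, 458 and 284 FPKM. Lca5, lebercilin of the connecting cilium, was among the 8 steadiest of the 4256 genes with a mean of at least 20 FPKM, at 22.4, 22.3 and 22.5 FPKM, and Bbs2, of the ciliary transport complex, was at 27.7, 26.4 and 26.6 FPKM. Prph2 and Rp1l1 were the least steady of this list.

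Control 3 was the lowest library for 10 of the 10 core markers, for 30 of the 30 rod genes with a mean of at least 1 FPKM and for 21 of the 21 phototransduction genes, against 44.0% of all genes. The median difference of control 3 from the mean of controls 1 and 2, on log2(FPKM + 0.5), was −1.34 for the core markers and −1.28 for phototransduction genes. Among the core markers the differences of Nrl and Nr2e3 were the smallest in size, at −0.41 and −0.56. Samd7, a photoreceptor repressor, was the steadiest of the rod list at 123, 130.1 and 111 FPKM. Without control 3, controls 1 and 2 gave nearly equal rod shares, as stated above.

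The promoters of Sag and Gngt1 are shown as rod genes that moved together in control 3 and that were chosen for holding TAATCC, the core letters of sites for CRX, a photoreceptor homeodomain factor. Of the 7 core rod genes with a promoter entry, 3 (Cnga1, Gngt1 and Sag) held it on either strand within the 250 bases before the start, against 7.21% of the 27025 genes in the promoter table. Pigment epithelium genes held it as often, in 4 of 8, and cone genes in 1 of 7. Both sequences are from RefSeq on GRCm38.p6, at chr1:87803430-87803679 (plus strand) for Sag and chr6:3993758-3994007 (plus strand) for Gngt1, with the match, here on the opposite strand and so read as GGATTA, in capitals.
Sag: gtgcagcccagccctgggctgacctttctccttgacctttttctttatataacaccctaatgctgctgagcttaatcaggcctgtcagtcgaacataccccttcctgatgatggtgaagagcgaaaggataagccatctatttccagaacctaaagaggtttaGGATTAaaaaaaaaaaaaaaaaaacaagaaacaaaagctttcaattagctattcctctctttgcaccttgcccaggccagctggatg
Gngt1: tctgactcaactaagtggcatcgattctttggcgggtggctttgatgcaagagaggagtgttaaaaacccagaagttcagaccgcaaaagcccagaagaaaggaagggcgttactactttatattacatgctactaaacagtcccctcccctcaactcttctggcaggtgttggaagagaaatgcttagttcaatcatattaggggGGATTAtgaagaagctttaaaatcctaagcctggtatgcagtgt

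Cone markers had a smaller sum than rod markers and more steady members. They made up 0.174%, 0.216% and 0.215% of FPKM, and 5 of the 9 with a mean of at least 1 FPKM were steady, against 1 of the 10 rod markers. Both counts lie below the 79.1% of all genes. Opn1sw, the short-wavelength opsin (chr6:29376671-29388468, minus strand), was at 108, 127 and 121 FPKM. Opn1mw, the medium-wavelength opsin that follows it in development, was at 0.681 and 0.296 FPKM and was listed at 0 in control 3. Gnat2, the α subunit of cone transducin, was at 33.6, 38.6 and 28.7 FPKM, and Arr3, cone arrestin, at 21.0, 16.4 and 8.63 FPKM. Most of the cone sum was Gngt2, the γ subunit of cone transducin, at 485, 641 and 727 FPKM. It overlaps Abi3 on the opposite strand, and the part of Abi3 in its value was not tested.

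The 3 leading factors shared by rods and cones were high and steady, although only 6 of the 22 genes of their list were steady, against 79.1% of all genes. Crx was at 503, 545 and 412 FPKM, Otx2, which starts photoreceptor and BC fate, at 381, 442 and 492 FPKM, and Neurod1, a proneural factor kept in photoreceptors, at 333, 402 and 309 FPKM. Rcvrn, recoverin, a calcium sensor of the phototransduction cascade, was the least steady of this list at 153, 143 and 44.0 FPKM. Among visual cycle genes, Rbp3, the retinoid carrier between photoreceptors and pigment epithelium, led at 338, 314 and 197 FPKM.

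Retinal transcription factors spanned a wide ladder of levels, and 37 of the 78 with a mean of at least 1 FPKM were steady against 79.1% of all genes. Of 81, 10 had a mean of at least 100 FPKM, 38 were between 10 and 100, 30 were between 1 and 10, and 3 were under 1. Photoreceptor factors took the top 5 places in each library. Nr2e3 led in all 3, followed by Nrl and then Crx in controls 1 and 2, and by Otx2 in control 3. Below Neurod1 there was a gap to Neurod4, a proneural factor of BCs and amacrine cells, at 144, 186 and 192 FPKM. Pax6, of progenitors and amacrine cells (chr2:105668900-105697364), followed at 148, 143 and 226 FPKM. Of the 14 neighbouring pairs among the 15 highest, 5 kept their order in all 3 libraries, so most neighbours lay within their spread.

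**Figure D3:**
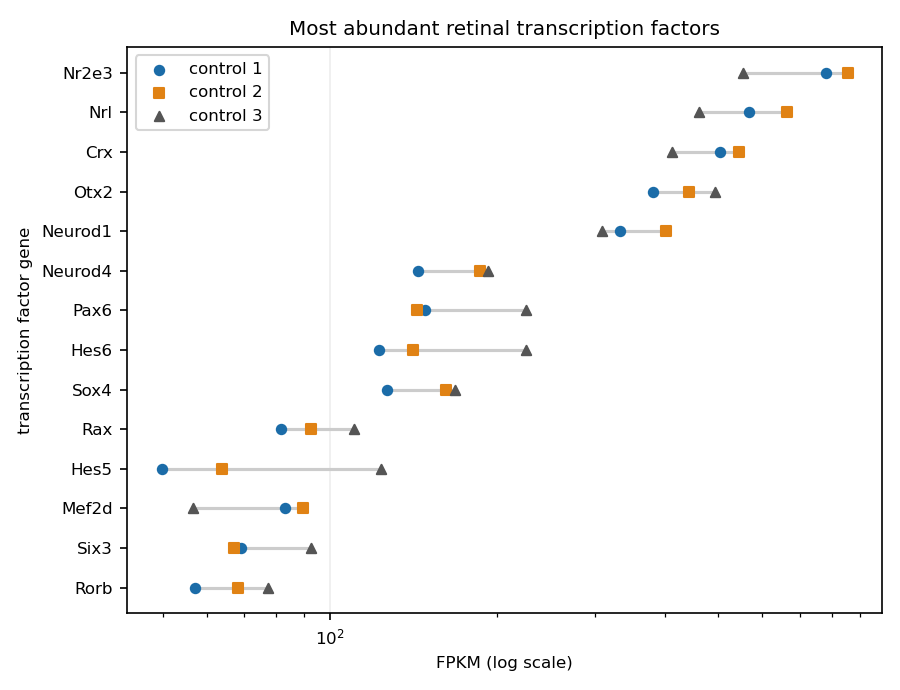
FPKM (log scale) of 14 of the 15 retinal transcription factor genes with the highest mean, 1 point per control library, with a grey line from the lowest to the highest library. Nr2e3 is highest in each library, at 781, 854 and 554 FPKM, and the 5 highest genes lie above all others.

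Lower on the ladder, the steadiest and least steady factors included several BC genes. Lhx4, the LIM-homeodomain gene inactivated in the null group (chr1:155698031-155751684, minus strand), was at 18.0, 18.1 and 19.3 FPKM, a ratio of 1.07. Nr2f2, a nuclear receptor of the dorsoventral pattern, was at 11.1, 10.7 and 11.3 FPKM. At the other end, Vsx1, a homeodomain factor of cone BCs, was at 11.2, 5.62 and 0.541 FPKM, and Bhlhe23, a bHLH factor of rod BCs, at 11.5, 7.45 and 0.986 FPKM. Atoh7, which opens ganglion cell fate, was at 1.20, 0.644 and 6.10 FPKM. Ptf1a, a factor of amacrine and horizontal precursors, was at 0.541, 0.949 and 3.84 FPKM.

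BC markers were at low levels and uneven. The 10 core markers made up 0.0412%, 0.0256% and 0.0133% of FPKM, and 7 of 10 were unsteady against 7.05% of all genes. Grm6, the metabotropic glutamate receptor of ON BCs (chr11:50850685-50866208), was at 33.6, 11.6 and 0.0953 FPKM. Trpm1, the channel it closes, was at 9.01, 2.76 and 1.08 FPKM, and Scgn, secretagogin of cone BCs, at 11.7, 7.05 and 0.664 FPKM. Each was highest in control 1, intermediate in control 2 and lowest in control 3. Gabrr1, a GABA receptor subunit of BCs, had the same order at 6.35, 2.19 and 0.343 FPKM. Control 3 was lowest for 9 of the 10 core markers, against 44.0% of all genes, with a median log2 difference of −1.63. Controls 1 and 2 also differed, as the core sum was higher in control 1.

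The steady BC markers were others. Cabp5, a calcium-binding protein, was at 6.35, 7.03 and 5.02 FPKM, and Prdm8, a zinc finger factor, at 20.5, 15.4 and 13.9 FPKM. Among the wider factors Isl1, of ON BCs and other inner retinal neurons, was at 64.6, 35.5 and 19.9 FPKM, while Bhlhe22 was at 29.7, 28.1 and 26.3 FPKM. Among OFF and cone BC markers, Gria1 was at 7.33, 7.08 and 7.51 FPKM and Tacr3, the neurokinin receptor, at 2.46, 2.46 and 2.61 FPKM.

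Dividing progenitor genes were present at low levels and moved the opposite way. Their 10 core markers made up 0.0143%, 0.0179% and 0.043% of FPKM and none was steady, against 79.1% of all genes. Top2a, the topoisomerase of dividing cells, was at 9.17, 13.4 and 37.1 FPKM. Cdk1, the kinase that drives mitosis, was at 5.29, 8.84 and 27.5 FPKM, and Mki67, the proliferation antigen, at 3.60, 5.25 and 12.2 FPKM. Control 3 was the highest library for 10 of the 10, and for 36 of the 36 genes of the cell cycle list, against 35.1% of all genes. The median log2 difference was 1.37 for the core markers and 1.19 for the list. Ccnd1, cyclin D1, the G1 cyclin of retinal progenitors, was the most abundant at 64.3, 85.2 and 173 FPKM. Mcm7 and Ccne2 were the steady ends of the list, with Ccne2 at 4.25, 3.97 and 4.42 FPKM. In controls 1 and 2 alone, the class was at places 9 and 7 of 17, against place 5 in control 3.

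Progenitor and neurogenic regulators were higher in control 3 by a median of 0.44 and 0.58 on log2(FPKM + 0.5), against 1.19 for the cell cycle list, with some members such as Foxn4 well above these medians. Hes5, a Notch target of progenitors, was at 49.8, 64.0 and 124 FPKM, and Hes6, which counters Hes1 in neurogenic cells, at 122, 141 and 225 FPKM. Foxn4, of amacrine and horizontal progenitors, was at 1.48, 2.14 and 5.95 FPKM. Notch3 was steady at 1.10, 1.14 and 1.14 FPKM. All 23 genes of the Notch list were detected, and their share was 0.0976%, 0.102% and 0.148%.

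**Figure D4:**
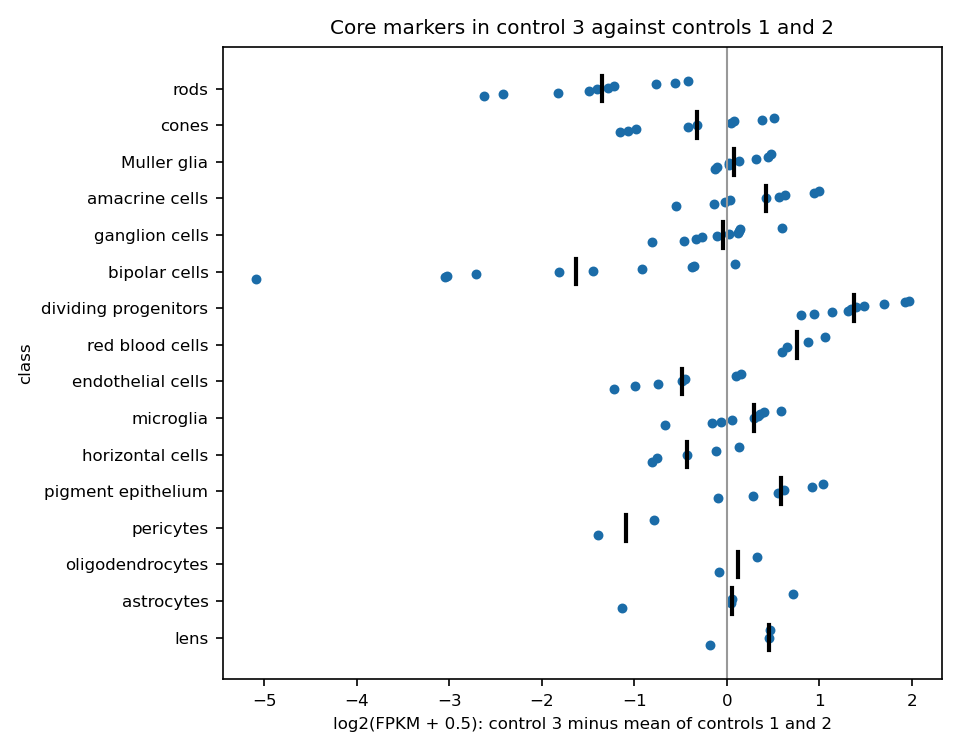
Difference of control 3 from the mean of controls 1 and 2 on log2(FPKM + 0.5) for each core marker with a mean of at least 1 FPKM, by class, with a black bar at the class median. Rod and bipolar cell markers lie mostly left of 0, with medians of −1.34 and −1.63, and dividing progenitor markers lie right of it, with a median of 1.37.

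The promoters of Cdk1 and Ccnb1, the mitotic kinase and its cyclin, are shown because their levels moved together and because they hold CCAAT, the letters bound by NF-Y, which is known at the promoters of mitotic genes. The motif was in 6 of the 7 core progenitor genes with a promoter entry and in 37.5% of the 27025 genes in the promoter table, on either strand. It was as frequent in other small sets, in 7 of 8 pigment epithelium and 4 of 5 red blood cell genes. The sequences are from RefSeq on GRCm38.p6, at chr10:69352913-69353162 (minus strand) for Cdk1 and chr13:100786487-100786736 (minus strand) for Ccnb1, with matches to CCAAT, or to ATTGG for the opposite strand, in capitals.
Cdk1: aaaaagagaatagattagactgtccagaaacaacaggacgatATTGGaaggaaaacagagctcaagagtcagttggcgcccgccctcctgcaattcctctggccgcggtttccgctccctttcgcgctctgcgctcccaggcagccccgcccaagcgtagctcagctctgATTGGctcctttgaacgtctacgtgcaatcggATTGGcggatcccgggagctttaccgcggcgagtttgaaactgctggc
Ccnb1: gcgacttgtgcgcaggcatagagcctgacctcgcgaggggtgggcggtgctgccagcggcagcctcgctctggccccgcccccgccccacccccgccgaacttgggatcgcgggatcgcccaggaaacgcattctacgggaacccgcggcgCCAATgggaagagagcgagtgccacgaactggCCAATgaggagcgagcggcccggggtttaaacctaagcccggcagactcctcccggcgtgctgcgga

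Müller glia core markers were the steadiest of the late-born classes. Their sum was 0.185%, 0.167% and 0.19997% of FPKM. Of these markers, 7 of the 8 with a mean of at least 1 FPKM were steady, against 79.1% of all genes. In the wider Müller glia list, 17 of the 26 genes at that level were steady, which is below the share of all genes. Rlbp1, the retinaldehyde-binding protein, was at 113, 127 and 110 FPKM, Glul, glutamine synthetase, at 92.7, 104 and 108 FPKM, and Slc1a3, the glial glutamate transporter, at 53.5, 45.0 and 49.8 FPKM. Apoe, apolipoprotein E, led the class at 353, 290.1 and 436 FPKM. Some core markers were far lower. Kcnj10, the potassium channel, was at 2.28, 2.31 and 2.97 FPKM, and Aqp4, the water channel, was under 0.14 FPKM in each library.

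Amacrine cells were marked by factors and by transmitter genes, and the transmitter genes did not share a single pattern. Tfap2b was at 56.9, 55.4 and 75.6 FPKM and Tfap2a at 20.2, 18.7 and 37.8 FPKM, so both AP-2 factors were highest in control 3. Gad1, which makes GABA, was steady at 30.7, 26.3 and 29.0 FPKM, and Slc32a1, the vesicular GABA and glycine transporter, at 20.8, 17.7 and 18.9 FPKM. Slc6a9, the glycine transporter, was lowest in control 3, at 63.0, 53.1 and 39.5 FPKM. Gad2, which also makes GABA, was highest in control 3 like the AP-2 factors, at 3.89, 4.97 and 9.25 FPKM. Markers of sparse subtypes were near or below 1 FPKM, with Chat, of starburst cells, at 1.49, 0.945 and 1.04 FPKM and Th, of dopaminergic cells, at 0.652, 0.245 and 0.279 FPKM.

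Ganglion cell markers were low. All 10 core markers were detected, at 0.0468%, 0.0419% and 0.0388% of FPKM, and 7 were steady, against 79.1% of all genes. Sncg, γ-synuclein, was the most abundant at 88.7, 81.4 and 78.8 FPKM, and Thy1, a surface glycoprotein of ganglion cells, was at 41.1, 32.4 and 28.8 FPKM. Rbpms, a pan-ganglion cell RNA-binding protein, was at 16.9, 17.9 and 19.1 FPKM, and the POU factors Pou4f1 and Pou4f2 were at 9.12, 9.45 and 10.2 FPKM and at 4.43, 4.75 and 5.12 FPKM. Opn4, melanopsin of the light-sensing ganglion cells, was at 2.02, 1.23 and 1.02 FPKM. Horizontal cells, with 6 core markers against 10 in the other neuron classes, had the lowest sum among neurons, at 0.00861%, 0.00806% and 0.00573%. Prox1, which BCs and amacrine cells also express, led them at 23.9, 21.8 and 16.8 FPKM. Onecut1 was at 1.74, 1.92 and 1.65 FPKM, Lhx1 at 2.07, 3.04 and 1.22 FPKM, and Gja10, the connexin of horizontal cells, was under 0.3 FPKM in each library.

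Synaptic genes covered a wide range of levels. Snap25, a SNARE protein, was at 398, 385 and 329.9 FPKM, and Syp, synaptophysin, at 354, 328 and 244 FPKM. Cplx4 and Cabp4, the complexin and calcium-binding protein of photoreceptor terminals, were at 27.3, 28.4 and 7.45 FPKM and at 9.38, 9.08 and 2.41 FPKM. Control 3 was lowest for 26 of the 30 genes of the ribbon and presynaptic list, against 44.0% of all genes. Slc17a7, the vesicular glutamate transporter of photoreceptors and BCs, was at 128, 112 and 44.0 FPKM. Receptor genes were low, at 0.0497%, 0.0374% and 0.0329% for glutamate receptors and 0.0339%, 0.0275% and 0.0221% for GABA and glycine receptors. Grik5, a kainate receptor subunit, led the glutamate receptors at 33.7, 28.5 and 32.4 FPKM. Among neuropeptides, Npy was at 135, 107 and 82.1 FPKM and Tac1 was steady at 13.2, 14.2 and 13.97 FPKM.

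Markers of cells from outside the neural retina were low. Microglia made up 0.00945%, 0.00945% and 0.0104% of FPKM, with 7 of the 9 core markers at a mean of at least 1 FPKM steady, a share near the 79.1% of all genes. Tyrobp, a myeloid adaptor, was at 9.57, 7.56 and 8.14 FPKM and Csf1r, the receptor for colony-stimulating factor, at 2.03, 1.85 and 1.69 FPKM. Among endothelial markers, Kdr, a VEGF receptor, was steady at 40.2, 38.8 and 42.3 FPKM. Pecam1, at 1.82, 1.20 and 0.687 FPKM, and Cdh5, at 1.55, 1.41 and 0.494 FPKM, were far lower and unsteady. Egfl7 was lower than Kdr but also steady, at 9.55, 11.2 and 11.6 FPKM. Kdr and Egfl7 were the 2 steady genes of the 7 core markers with a mean of at least 1 FPKM, against 79.1% of all genes. The 6 core pericyte markers had their lowest sum in control 3, at 0.00666%, 0.00552% and 0.00269%, with Rgs5 at 11.8, 9.65 and 3.75 FPKM. The wider list of 14 pericyte and smooth muscle genes, led by Ndufa4l2, instead had its highest sum there, at 0.0205%, 0.0251% and 0.0317%.

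Pigment epithelium genes were at 0.00382%, 0.00702% and 0.00785%. Rpe65, the isomerase of the visual cycle, was at most 0.0472 FPKM, and Tyrp1 and Pmel, of melanosomes, were at 0.858, 2.09 and 2.38 FPKM and at 1.46, 3.50 and 4.8 FPKM. Haemoglobin genes, which report red blood cells, were highest in control 3, with Hbb-bs at 26.5, 25.03 and 39.1 FPKM. Lens genes were low, with Crybb3 highest at 3.43, 4.28 and 3.32 FPKM and Mip at most 0.019 FPKM. Mobp, of myelin, was listed at 0 in all 3 libraries, and no skeletal muscle marker was detected. The libraries thus carried the markers of the labelled tissue, and the part of these minor sources in the departure of control 3 was not tested.

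Steadiness rose with level and then fell at the top. It was 56.5% of the 2946 genes with a mean from 1 to 5 FPKM, 83.6% from 5 to 20 FPKM, 89.7% from 20 to 100 FPKM, 88.8% from 100 to 1000 FPKM and 75.9% of the 29 genes at 1000 FPKM or more. It also differed by exon length, at 24.2% of the 33 genes under 500 exon bases and 81.3% of the 6979 with 4000 or more. The 33 short genes had a median of 3.09 FPKM, against 12.1 FPKM for the longest, so length and level were not separated. Among the 4256 genes with a mean of at least 20 FPKM, Tpgs1, of the tubulin polyglutamylase complex, was steadiest at 31.2, 31.3 and 31.2 FPKM. Jmjd1c, of a histone demethylase family, was at 47.7, 47.7 and 47.4 FPKM, and Nae1, of the NEDD8 activating enzyme, at 39.6, 39.5 and 39.3 FPKM. Rtfdc1, Clpp, Syt11 and Ociad1 made up the 8 with Lca5.

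The largest ratios at that level had several patterns. Eif2s3y, a Y-linked translation factor, had the largest, at 81.2, 0.129 and 74.1 FPKM, and Ddx3y, Kdm5d and Uty were likewise near 0 in control 2 alone. The summed Y-linked genes were 0.0308%, 4.3e-05% and 0.0274% of FPKM. The study used animals of both sexes, and the sex of each control was not tested. Ece1, the endothelin-converting enzyme, fell over all 3 at 310, 185 and 31.5 FPKM. Slc15a2, a peptide transporter, was at 32.7, 7.29 and 55.9 FPKM, with control 2 the lowest as for Hnrnph1. Trnp1, a nuclear protein of neural progenitors, was at 65.6, 35.05 and 9.35 FPKM. Ppp2r3d, at 88.5, 303 and 470.0 FPKM, is a name on more than 1 row, and the highest row is given. Its next row went the other way, at 337, 72.9 and 81.2 FPKM, so the ratio is that of 1 row and not of the name as a whole. Alb, albumin, chosen after its values were seen, was listed at 0 in controls 1 and 2 and at 77.8 FPKM in control 3.

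**Figure D5:**
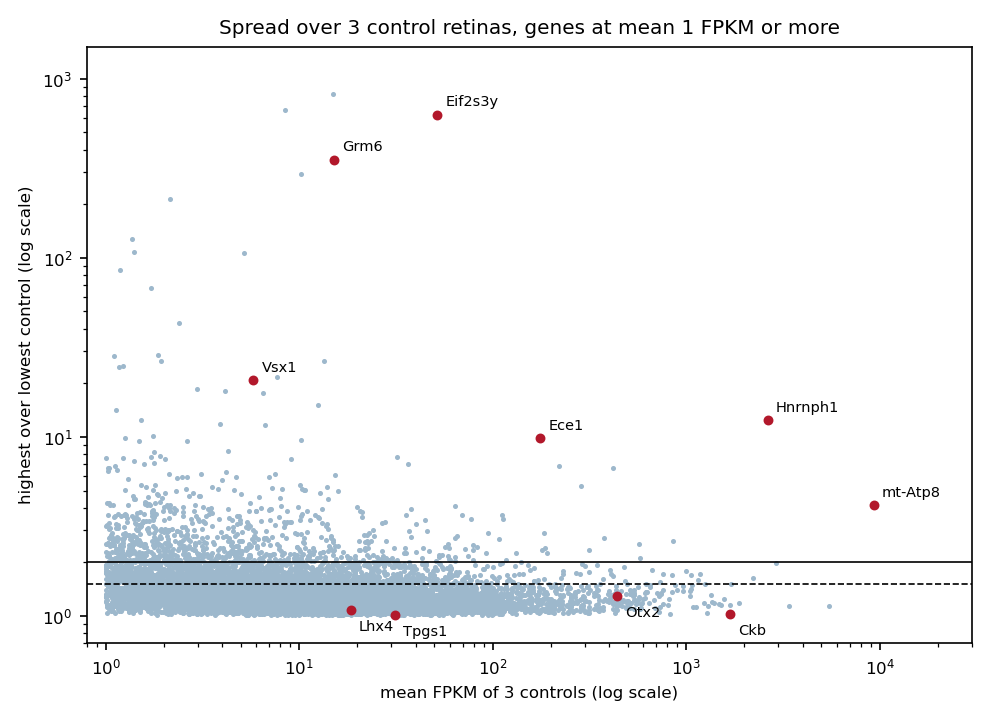
Ratio of the highest to the lowest of the 3 control libraries (log scale) against mean FPKM (log scale) for genes with a mean of at least 1 FPKM and no library at 0, 1 point per gene, with lines at 1.5 (dashed, below it steady) and 2 (solid). Most genes lie under the dashed line, Lhx4 at 1.07 and Ckb at 1.03, while Eif2s3y at 627, Grm6 at 352 and Hnrnph1 at 12.3 lie far above it.

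Signalling genes were lower, and 12 of the 21 Wnt and Norrin genes with a mean of at least 1 FPKM were steady, against 79.1% of all genes. Ctnnb1, β-catenin, was at 154, 166 and 190.3 FPKM, while Ndp, the Norrin ligand of retinal vessel growth, was at 3.995, 4.11 and 3.90 FPKM and its receptor partner Lrp5 at 6.73, 6.14 and 9.24 FPKM. Sfrp2, a secreted Wnt modulator of progenitors, was the least steady at 3.52, 2.53 and 7.55 FPKM. Vegfa, the growth factor for vessels, was at 132, 125 and 175 FPKM, and Hif1a, its oxygen-sensitive regulator, at 112, 124 and 96.8 FPKM. The patterning genes Tbx2 and Epha5, both graded across the developing retina, were at 49.5, 45.8 and 72.8 FPKM and at 18.8, 19.5 and 18.9 FPKM.

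Astrocyte and early glial genes covered a wide range of levels, and 3 of the 9 with a mean of at least 1 FPKM were steady, against 79.1% of all genes. Fabp7, a lipid-binding protein of radial glia and astrocytes, was at 342, 447 and 642 FPKM, and Igfbp2 at 37.4, 44.3 and 94.3 FPKM. Gfap, the intermediate filament of retinal astrocytes, was at 4.64, 5.85 and 2.10 FPKM, and Pdgfra, the receptor that astrocytes use to spread over the retina, was steady at 6.93, 6.72 and 7.14 FPKM. Slc1a2, a glutamate transporter of cones, BCs and glia, was at 34.5, 33.0 and 34.3 FPKM.

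By biotype, nuclear protein-coding genes held 93.1%, 92.3% and 89.4% of FPKM in controls 1, 2 and 3. The 102 long non-coding genes of the table held 0.0457%, 0.0444% and 0.0413%, and 20 of them were detected, led by Zfas1. The 151 pseudogenes held 0.0189%, 0.0168% and 0.0204%, and 5 were detected.

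Cell death and chaperone genes were even, and immediate early genes less so. Of the 17 cell death and p53 target genes with a mean of at least 1 FPKM, 16 were steady, against 79.1% of all genes. Immediate early genes made up 0.0767%, 0.0886% and 0.0789% of FPKM, and 7 of 11 were steady, with Jun at 39.9, 48.6 and 28.2 FPKM. All 20 chaperone genes were steady, and Hspa8 was at 318, 324 and 299.7 FPKM.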

How the data were processed

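RNA-seq was carried out on total RNA from P6 mouse retinas with TruSeq libraries and paired-end Illumina reads. The authors deposited 1 FPKM value per gene and library, and their processing notes name TopHat2, Cufflinks and the build GRCm38. For versions, annotation and strand setting, the sources used here give nothing. Cufflinks shares fragments among overlapping transcripts, so values are uncertain for genes that overlap, lie antisense to each other or have close copies, and a gene that takes more of a library lowers the rest.

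From 21995 rows, the row with the highest mean was kept for each of 78 names that occurred on 172 rows, and 27 rows showed a calendar date in place of a name and counted only toward totals (0.179% to 0.193% of FPKM). Coordinates were taken from GENCODE M21 (GRCm38) for the 21239 names (97.1%) with a single match, and promoters from RefSeq on GRCm38.p6. Python 3.11.15, pandas 2.3.3, numpy 2.4.6 and scipy 1.17.1 were used. Shares are a gene set's summed FPKM as a percentage of the library total. Differences between libraries are on log2(FPKM + 0.5), which understates low genes. No group was compared and no test was run, and the scripts for steadiness were tested on simulated data. Low values (0.001 to 0.2 FPKM) were checked for steps of whole reads. The most common ratio between a pair of libraries, within 0.003 on the natural log scale, was shared by 3.34% of 1348 low rows for controls 1 and 2 and by 0.946% of 1269 for either with control 3, so whole reads were not recovered and no depth is given.

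Lists, core markers and thresholds were chosen with earlier results of these data known. Genes named were the 25 of highest mean, the 15 highest retinal transcription factors, up to 6 highest members of each list and core set, core markers under 1 FPKM in low classes, all core markers of neurons, Müller glia and dividing progenitors, the 8 largest and 8 smallest ratios at a mean of at least 20 FPKM, and the 2 largest and 2 smallest ratios of each list. Alternatives were other scalings, minimums, pseudocounts, summaries and totals, and leaving out each library. Some genes that this rule selects are not reported here.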

Additional observations from a re-analysis of the deposited data

How the results depend on the processing

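No paired analysis was possible because no groups were compared. Leaving out each library in turn gave 11799 to 11922 detected genes, 10281 to 11629 steady genes, 8 to 10 class pairs in the same order, and 33 to 45 of the 48 programmes with shares within 1.5-fold, against 29 with all 3. The count of 45 came without control 3. Fewer libraries give a smaller range by construction. Rescaling each library to the same FPKM sum moved the median difference of control 3 over all genes from −0.03 to −0.11 (log2). It gave 12776 detected genes and 9798 steady genes (73.5% of 13328). The common sum was larger than that of any library, so every value rose and the minimum of 1 FPKM admitted lower genes. These counts therefore mix the scaling with a lower minimum. Rescaling to the same upper quartile instead gave 11699 detected genes and 9669 steady genes (79.3% of 12199). Median differences of control 3 stayed between −1.43 and −1.32 for rods, −1.83 and −1.45 for bipolar cells, and 1.30 and 1.43 for dividing progenitors over the scalings, pseudocounts and minimums run. A minimum of 2 FPKM left 10706 detected genes. Using the median marker put red blood cells at place 4 and cones at place 5, with 5 of 17 classes at the same place. Differences of control 3 near 0 changed sign with the scaling for the core Müller glia and core astrocyte sets and for the amacrine, cytoskeleton, chaperone, immediate early and cell death lists. The depth of each library is not given in the sources used here, so values under 1 FPKM are uncertain.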
